A study of Mus musculus with 5 samples.

Results

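PKCδ neurons of the lateral central amygdala (CeL) were followed here as single nuclei selected by their Prkcd counts. A nucleus was taken in when it had 500 to 8000 genes, mitochondrial UMIs under 0.8% and at least 1 UMI of Gad1 or Gad2, the enzymes that make GABA. It also had to reach 3 Prkcd UMIs per 10000 UMIs of that nucleus (p10k) and to stay under limits on genes of neighbouring types: Calcrl plus Drd2 under 3 p10k, Dnah5 plus Vipr2 plus Tac2 plus Nts under 6, Pde1c under 15, Rarb under 5 and Foxp2 under 8. This left 435 nuclei, called Prkcd nuclei here, which were 7.23% of the 6020 nuclei with a Gad UMI, out of 7161 nuclei within the bounds and 23839 barcodes in all. They came from 5 libraries of the mouse central amygdala (CeA), each pooled from 1 male and 1 female mouse and read with the 10x 3′ v3.1 chemistry, introns included. Fed replicates 1 and 2 came from fed mice of 8 weeks, and fed replicate 3 from fed mice of 12 weeks, on a C57BL/6N background, that carried the Htr2a-Cre BAC transgene and an AAV-DIO-mCherry vector, whose mCherry needs Cre. Fasted replicate 1 came from mice of 8 weeks without food for 20 h, and fasted replicate 2 from mice of the same age for which the label gives 21 h. The wild-type mice of the study were C57BL/6NRj. The fed libraries gave 66, 62 and 114 Prkcd nuclei, in the order of their replicate numbers, and the fasted libraries 90 and 103. Their summed UMIs were 624357, 1229050 and 1847915 in the fed libraries, and 682384 and 1649533 in the fasted ones.

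Prkcd encodes protein kinase C delta, a calcium-independent member of the PKC family that diacylglycerol activates. Receptors that couple to the G protein Gq turn on phospholipase C, which splits a membrane lipid into diacylglycerol, the activator of PKC, and inositol trisphosphate, which opens calcium channels of the endoplasmic reticulum. In the CeL, the GABAergic neurons that hold PKCδ are known for their part in gating fear and in suppressing food intake after aversive or satiety signals, and they inhibit other CeA neurons. A pair of other gates served for comparison. They had the same bounds on genes and mitochondrial UMIs and the same limits on Pde1c, Rarb and Foxp2. Each held nuclei with a Gad UMI. Calcrl/Drd2 nuclei had at least 3 p10k of Calcrl plus Drd2 (175 fed nuclei), and Nts/Tac2 nuclei had at least 6 p10k of Dnah5, Vipr2, Tac2 and Nts together and Calcrl plus Drd2 under 3 (142 fed nuclei). Calcrl encodes the receptor subunit for CGRP, Drd2 a dopamine receptor, and Nts and Tac2 the precursors of neurotensin and neurokinin B. The 12 genes used in the gates were left out of every test.

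Levels are given in CPM, the UMIs of a gene scaled to 1000000 of all UMIs summed over the nuclei of one gate in one library, so the library is the replicate. Counts with introns grow with gene length, so levels were compared between gates and not between genes. Prkcd itself (ENSMUSG00000021948, chr14:30317307-30349238 on the minus strand, GRCm39) stood at 730.4, 683 and 702 CPM in the fed libraries and at 615 and 609.9 CPM in the fasted ones, which the gate set. The median Prkcd nucleus held 7.14, 6.35 and 6.37 p10k of Prkcd in the fed libraries, and 5.75 and 5.55 p10k in the fasted libraries. Median depth was 9348.5, 20458.5 and 15099 UMIs per Prkcd nucleus in the fed libraries, and 7414.5 and 16520 UMIs in the fasted ones. At these depths 14 Prkcd nuclei entered on a single Prkcd UMI, 4 and 2 of them in fed replicates 2 and 3 and 8 in fasted replicate 2.

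The rule asked for Gad1 or Gad2, so their levels do not check the label. Of the other genes on the list for GABAergic neurons, Slc32a1, the transporter that loads GABA into vesicles, was sparse at 20.8, 15.5 and 10.3 CPM in the fed libraries and 15.1, 9.46 and 12.7 CPM in the nuclei without Gad. The 6 genes of excitatory neurons summed to 1.6, 8.14 and 1.62 CPM, with Slc17a7 and Neurod6 at 0 in every library. Markers of endothelial cells summed to 0 to 3.03 CPM over the 5 libraries, with Cldn5 and Flt1 at 0, and those of oligodendrocyte precursors to 6.41 to 22.7 CPM. Microglial markers summed to 192, 46.4 and 29.2 CPM in fed replicates 1, 2 and 3 and to 17.6 and 141 CPM in the fasted ones. Astrocyte markers summed to 176, 206 and 181 CPM in the fed libraries, most of it Slc1a2, and oligodendrocyte markers to 243, 216 and 237 CPM, most of it Mbp. In the other Gad nuclei these were 320, 293 and 425 CPM and 228, 187 and 197 CPM. The 11 markers of other CeA and nearby inhibitory types summed to 143, 220 and 246 CPM, most of it Cdh9, against 871, 1224 and 958 CPM in the other Gad nuclei. No nucleus barcode of the 435 occurred in more than one library, and Scrublet, a doublet caller, marked 5 of the 435 (70 of the 7161 nuclei, 0.978%). The label of a CeL population could not be read from position, since nuclei carry none. Ezr, which encodes ezrin and is used as a marker of these neurons, stood at 78.5, 54.5 and 99 CPM. The other nuclei with a Gad UMI held 7.12, 4.01 and 7.99 CPM. Ezr belongs to a list of 8 genes used before to study CeL PKCδ neurons. The 8 summed to 272, 345 and 361 CPM, against 295, 268 and 293 CPM in the other Gad nuclei. In the Calcrl/Drd2 nuclei they summed to 404, 479 and 390 CPM, so the list as a whole did not set the Prkcd nuclei apart.

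Prkcd transcripts were not confined to the members. Of 570 Gad nuclei with at least 3 p10k of Prkcd, 76.3% became members. The limit on Calcrl plus Drd2 was failed by 15.6% (89) and that on the Nts and Tac2 set by 8.77% (50). The limit on Rarb was failed by 8, that on Pde1c by 2 and that on Foxp2 by none. Some nuclei failed more than 1 limit, so these counts overlap. The Calcrl/Drd2 nuclei held 216, 233 and 204 CPM of Prkcd in the fed libraries. Just inside the threshold, at 3 to under 4 p10k, 69 members held 1796 CPM of Sox5, 2104 CPM of Tmcc3 and 77.6 CPM of Fyb2. Just outside, at 2 to under 3 p10k, 95 nuclei that met the other limits held 1326 CPM of Sox5, 1513 CPM of Tmcc3 and 25.3 CPM of Fyb2. Ezr was 45.8 CPM inside and 43.4 CPM outside. Among members, Sox5 was 1776 CPM at 3 to under 6 p10k (212 nuclei), 2088 CPM at 6 to under 12 (198 nuclei) and 2149 CPM at 12 or more (25 nuclei). So Ezr differed little across the threshold, Sox5 and Tmcc3 were moderately lower outside it and Fyb2 was far lower, in values pooled over the 5 libraries.

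The fed profile of the Prkcd nuclei was led by Fyb2, an adaptor gene that stood at 129.7, 102 and 62.8 CPM in fed replicates 1, 2 and 3 and at 4.91, 2.44 and 2.09 CPM in the other Gad nuclei. This was a ratio of 31.1 of the fed means. Ezr, the linker between the cell membrane and actin, followed with a ratio of 12.1 (77.3 ± 22.3 CPM against 6.37 ± 2.09, SD, n = 3 libraries). No test was made of these ratios, since the gate itself divided the nuclei. Of 5605 genes with at least 20 CPM in the Prkcd nuclei of every fed library, 237 exceeded 2-fold and 45 exceeded 4-fold the other Gad nuclei. This minimum in the Prkcd nuclei leaves out genes that are lowest there, so genes below the other Gad nuclei were not counted.

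The 20 genes with the highest ratio include Kdr and Boc. Kdr encodes a receptor for vascular endothelial growth factor (30.0 ± 6.04 CPM, ratio 10.7) and Boc a co-receptor for Hedgehog ligands (31.1 ± 8.61 CPM, ratio 9.37). Papln and Col27a1 encode the matrix proteins papilin and a fibrillar collagen, at 75.3 ± 11.1 CPM and 45.6 ± 11.6 CPM, with ratios of 9.13 and 8.27. Kdr is also known from endothelial cells, whose 4 markers summed to 1.6, 1.63 and 2.71 CPM here, with Pecam1 the most abundant and Cldn5 and Flt1 at 0. The part of such cells in Kdr was not tested. Tmcc3, which encodes a membrane protein of the endoplasmic reticulum, and Sox5, a transcription factor of the SoxD group, are long genes that gave the most UMIs of the 20. Tmcc3 reached 2276, 2303 and 1906 CPM, 6.6 times the other Gad nuclei, and Sox5 reached 2197, 2053 and 1954 CPM, 6.98 times. Pde8a, which encodes a phosphodiesterase for cyclic AMP, had a ratio of 6.66, and Pltp, which encodes a phospholipid transfer protein, 5.46. The others were Sh3d21, Epb41l4a, Tnfaip8, Fam107b, Coch, Gcnt2, Slc4a11, Gm11639, Cdc14a and Gm19410, with ratios between 5.49 and 12.

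**Figure D1:**
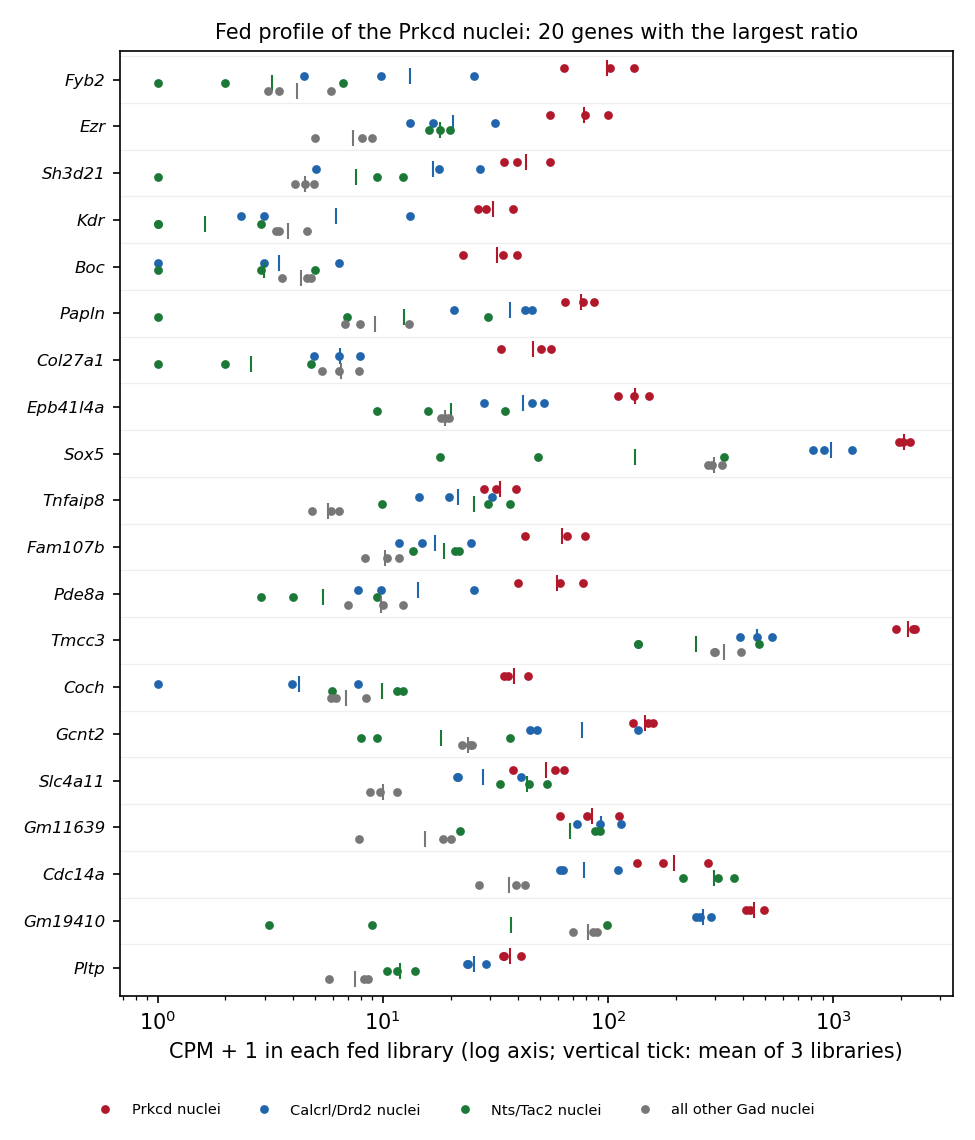
Fed levels of the 20 genes with the largest ratio between the Prkcd nuclei and the other Gad nuclei. The x axis is CPM plus 1 on a log scale, each dot is 1 of the 3 fed libraries, each tick their mean, and colours mark the gates. Sox5 and Tmcc3 stand furthest to the right (2068 ± 123 CPM and 2162 ± 222 CPM in the Prkcd nuclei), and Fyb2 shows the widest gap to the other Gad nuclei (98.1 ± 33.6 CPM against 3.15 ± 1.54).

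Among the genes kept by that minimum, Rasgrf1, which encodes an exchange factor for Ras, had the lowest ratio and stood at 20.8, 69.2 and 87.1 CPM in the Prkcd nuclei against 655 ± 26.2 CPM in the other Gad nuclei. Dcc, the netrin receptor of axon guidance, stood at 57.7, 83.8 and 169.9 CPM against 1134 ± 146. Brinp3, Cntn4, Hs6st3, Epha6, Sema6d and Mgat4c stood at 0.0987 to 0.125 times the mean of the other Gad nuclei, and the potassium channel genes Kcnh1 and Kcnb2 at 0.133 and 0.134 times. Dcc was lowest in fed replicate 1 and did not reach the other Gad nuclei in any library.

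The shares of single nuclei with a UMI of Sox5, Fyb2 and Ezr were compared at equal depth. After each nucleus was thinned to 4000 UMIs (232 of 242 fed members had as many, but only 275 of 602 fed nuclei without Gad, so these are the deeper ones among them), a Sox5 UMI was present in 98.4 ± 1.57% of the Prkcd nuclei, 68.6% of the Calcrl/Drd2 nuclei and 14.8% of the Nts/Tac2 nuclei (mean of 3 libraries, SD). Fyb2 was present in 21.7 ± 9.83%, 3.94% and 0.641%, with 0.702% in the nuclei without a Gad UMI. In those, the 11 markers of other CeA and nearby inhibitory types summed to 1016, 2410 and 1082 CPM in the fed libraries. The other Gad nuclei held 871, 1224 and 958 CPM of them. The nuclei without Gad are therefore a comparison and not a measure of free RNA. Unthinned, Fyb2 was found in 31.4% of the Prkcd nuclei. Ezr gave 21.4 ± 7.78% in the Prkcd nuclei against 8.35% without Gad. Sox5 was also frequent without Gad (56.2%). At this depth Sox5 was read in nearly every member and Fyb2 and Ezr in far fewer.

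Among the receptors that couple to Gq, those for substance P and neurotensin were higher in the Prkcd nuclei than in both comparison gates. Tacr1, the receptor for substance P (ENSMUSG00000030043, chr6:82379278-82537085 on the plus strand), stood at 309, 267 and 207 CPM in fed replicates 1, 2 and 3, against 101, 54 and 71.9 CPM in the Calcrl/Drd2 nuclei and 68.1, 19 and 19.9 CPM in the Nts/Tac2 nuclei. Every Prkcd value lay above every value of the other gates. The log2 fold change over the Calcrl/Drd2 nuclei was 1.72 (SE 0.15, adjusted p = 4.4e-08) and over the Nts/Tac2 nuclei 2.92 (SE 0.25, adjusted p = 1.14e-05), by the quasi-likelihood test of edgeR with library as a block and Benjamini-Hochberg adjustment, which all gate comparisons used. In all, 456 of 8141 genes tested were higher in the Prkcd than in the Calcrl/Drd2 nuclei (5.6%) and 601 were lower (7.38%, or 13% in either direction). Against the Nts/Tac2 nuclei 694 of 7917 were higher (8.77%) and 729 lower (9.21%, or 18% in either direction). Without fed replicate 3 the calls in either direction were 576 against Calcrl/Drd2 and 775 against Nts/Tac2. In what follows, a value in parentheses is a log2 fold change of the Prkcd nuclei over the other gate, the Calcrl/Drd2 nuclei first where both are given. Thinned to equal depth, Tacr1 was present in 56.4 ± 6.35% of the Prkcd nuclei, 18.1% and 9.16% of the other gates and 10.9% of the nuclei without Gad.

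Ntsr1, the receptor for neurotensin, showed the same order at 72.1, 71.6 and 80.1 CPM in the Prkcd nuclei, 10.8, 29.6 and 25.6 CPM in the Calcrl/Drd2 nuclei and 18.9, 10.6 and 3.98 CPM in the Nts/Tac2 nuclei. Its log2 fold changes were 1.73 (SE 0.24, adjusted p = 2.28e-05) and 2.91 (SE 0.35, adjusted p = 0.000129). Nts, the ligand gene, was itself a gate gene, so its level in the Nts/Tac2 nuclei came from the rule. At equal depth 23.3 ± 1.79% of the Prkcd nuclei held an Ntsr1 UMI, against 2.92% without Gad.

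Serotonin, acetylcholine, noradrenaline and orexin receptors did not share one direction. Htr2c, a serotonin receptor known for its role in satiety, was low in the Prkcd nuclei at 16, 19.5 and 54.7 CPM, against 92, 106 and 108 CPM in the Calcrl/Drd2 nuclei and 450.0, 1019.9 and 681 CPM in the Nts/Tac2 nuclei. The log2 fold changes were -1.70 (SE 0.24, adjusted p = 2.68e-05) and -4.56 (SE 0.31, adjusted p = 2.42e-06). The muscarinic receptor Chrm3 was also lower against both (-1.47 and -2.39), as was the adrenergic receptor Adra1a (-0.77 and -1.21). Hcrtr2, an orexin receptor, was higher than in the Calcrl/Drd2 nuclei (1.82, adjusted p = 0.000893) and lower than in the Nts/Tac2 nuclei (-0.91, adjusted p = 0.0313). Htr2a, the serotonin receptor whose Cre line gave fed replicate 3, was sparse at 12.8, 21.2 and 15.2 CPM. It was higher than in the Calcrl/Drd2 nuclei at 2.54 (SE 0.57, adjusted p = 0.00376), and did not pass against the Nts/Tac2 nuclei (0.04, SE 0.73, adjusted p = 0.981), where it stood at 0, 0 and 36.8 CPM, all of it in the library of the Htr2a-Cre mice. At equal depth 8.26 ± 0.591% of the Prkcd nuclei held an Htr2a UMI, against 2.14% without Gad. Grm5, a metabotropic glutamate receptor, differed by -0.08 (SE 0.07, adjusted p = 0.625) and -0.07 (SE 0.10, adjusted p = 0.702), which did not pass. Over the list, 4 of 11 tested members were higher and 3 lower against Calcrl/Drd2 (median log2 -0.08, all genes 0.00), and 3 of 10 were higher and 4 lower against Nts/Tac2 (median -0.01, all genes 0.01). Calls that were lost with 1 fed library left out were those of Adra1a against Calcrl/Drd2 (adjusted p = 0.141 without replicate 3), Htr2a against Calcrl/Drd2 (adjusted p = 0.0557 without replicate 2, not tested without replicate 3) and Hcrtr2 against Nts/Tac2 (adjusted p = 0.55 without replicate 3).

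Downstream of these receptors, Itpr1 stood out as low. Itpr1, which encodes the calcium channel opened by inositol trisphosphate, stood at 43.2, 35 and 60.1 CPM in the Prkcd nuclei, against 234, 81.8 and 211 CPM in the Calcrl/Drd2 nuclei and 233, 255 and 267 CPM in the Nts/Tac2 nuclei. Its log2 fold changes were -1.87 (SE 0.17, adjusted p = 1.69e-07) and -2.50 (SE 0.18, adjusted p = 3.76e-06). No fed library of the Prkcd nuclei reached the lowest library of either gate. Plcl1, a phospholipase C-like gene without catalytic activity, was higher than in the Calcrl/Drd2 nuclei (1.00) and lower than in the Nts/Tac2 nuclei (-1.13). Dgkg, one of the kinases that remove diacylglycerol, was higher than in both (0.42, SE 0.09, adjusted p = 0.00281 and 1.15, SE 0.15, adjusted p = 0.000185). Prkd1, protein kinase D1, another target of diacylglycerol, was lower than in the Calcrl/Drd2 nuclei (-0.74) and higher than in the Nts/Tac2 nuclei (2.68). Of the list of diacylglycerol and phospholipase C genes, 2 of 22 tested were higher and 7 lower against Calcrl/Drd2 (median -0.12), and 3 of 20 were higher and 5 lower against Nts/Tac2 (median 0.08). Dgkg against Calcrl/Drd2 lost its call with 1 fed library left out (adjusted p = 0.0857 without replicate 3), which left 1 of 21 higher and 6 lower.

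Among the other PKC genes, Prkce, a relative of Prkcd in the calcium-independent class, was higher than in both gates. It stood at 2013, 1899 and 2138 CPM in the Prkcd nuclei, 1609.6, 1596 and 1774 CPM in the Calcrl/Drd2 nuclei and 1559.8, 792 and 1014 CPM in the Nts/Tac2 nuclei. The log2 fold change was small against Calcrl/Drd2 (0.25, SE 0.08, adjusted p = 0.0382) and larger against Nts/Tac2 (0.84, SE 0.15, adjusted p = 0.00171). The calcium-dependent Prkcb was lower against both, at 360.4, 459 and 482 CPM with log2 fold changes of -0.99 and -0.91. Prkca, also calcium-dependent, was lower against the Nts/Tac2 nuclei (-1.55) and did not pass against the Calcrl/Drd2 nuclei (0.15). Prkch, a further calcium-independent isoform, was lower than in the Calcrl/Drd2 nuclei (-0.87) and higher than in the Nts/Tac2 nuclei (1.46). Of the 7 isoforms tested beside Prkcd, 1 was higher and 2 lower against Calcrl/Drd2, and 2 were higher and 3 lower against Nts/Tac2. Leaving out 1 fed library ended the calls against Calcrl/Drd2 of Prkce (adjusted p = 0.111 without replicate 1 and 0.285 without replicate 3) and Prkch (adjusted p = 0.258 without replicate 2 and 0.157 without replicate 3).

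**Figure D2:**
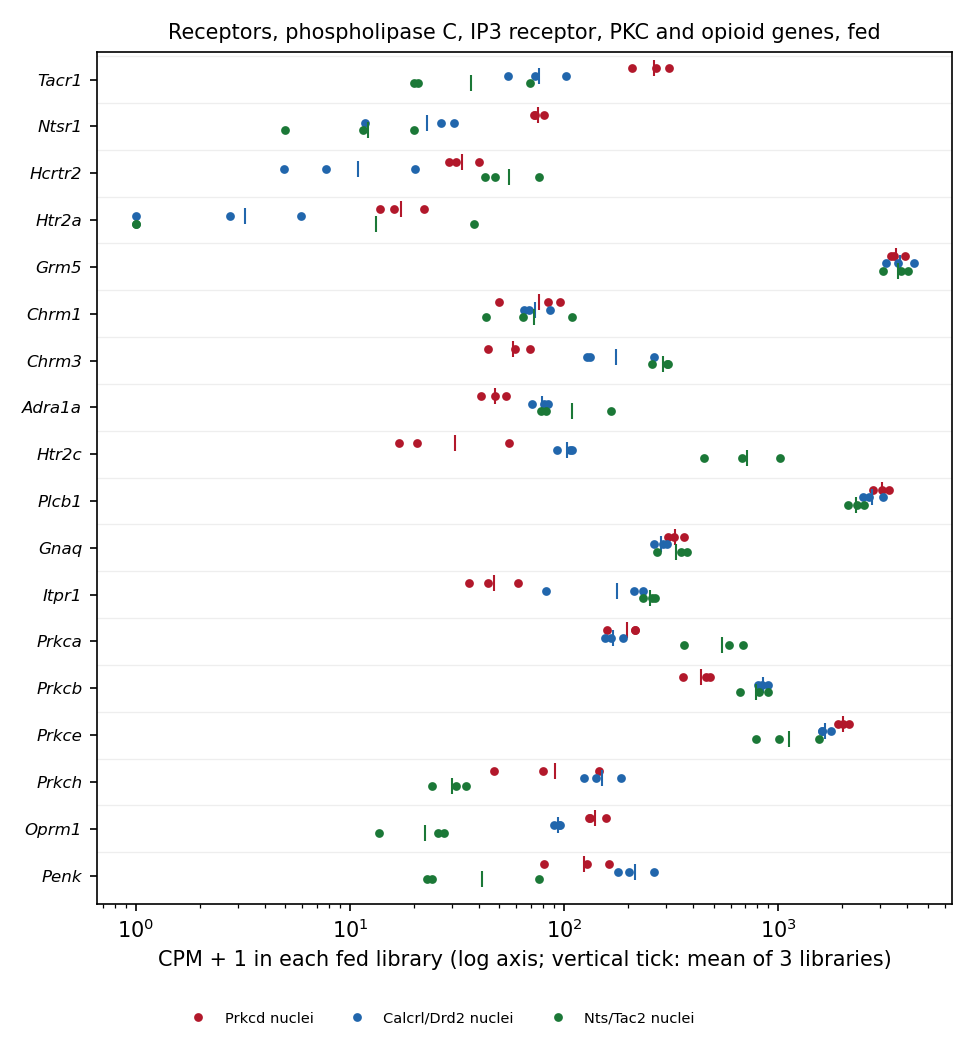
Fed levels of Gq-coupled receptors, phospholipase C and inositol trisphosphate receptor genes, PKC isoforms and opioid genes in 3 gates. The x axis is CPM plus 1 on a log scale, dots are the 3 fed libraries and ticks their means. Tacr1 and Ntsr1 lie highest in the Prkcd nuclei (309, 267 and 207 CPM for Tacr1), and Itpr1, Chrm3 and Htr2c lowest.

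Opioid genes differed as well. Oprm1, the mu opioid receptor, stood at 131, 155 and 130.4 CPM in the Prkcd nuclei, 94.7, 94 and 88.6 CPM in the Calcrl/Drd2 nuclei and 26.5, 12.7 and 24.9 CPM in the Nts/Tac2 nuclei, with log2 fold changes of 0.55 (SE 0.14, adjusted p = 0.00846) and 2.58 (SE 0.24, adjusted p = 2.17e-05). Penk, the precursor of enkephalins, stood between the gates at 80.1, 161 and 127 CPM, lower than in the Calcrl/Drd2 nuclei (-0.82, SE 0.13, adjusted p = 9.45e-05) and higher than in the Nts/Tac2 nuclei (1.68, SE 0.39, adjusted p = 0.0102). At equal depth a Penk UMI was present in 26.2 ± 6.46% of the Prkcd nuclei, 50.7% of the Calcrl/Drd2 nuclei and 14.6% of the nuclei without Gad. Chgb, a granin of dense-core vesicles, was higher than in both gates (0.77 and 0.95). Sst, the precursor of somatostatin, was nearly absent at 6.41, 4.88 and 3.79 CPM, and Pdyn, the precursor of dynorphin, at 3.2, 7.32 and 0 CPM, both lower than in the Nts/Tac2 nuclei (43.5, 78.1 and 66.7 CPM and 64.3, 63.3 and 75.6 CPM). Of the neuropeptide precursors tested, 3 of 7 were higher and 2 lower against Calcrl/Drd2, and 3 of 10 were higher and 3 lower against Nts/Tac2. The higher calls against Nts/Tac2 fell to 1 of 10 without fed replicate 2 and 1 of 8 without fed replicate 3. Of the genes named here, calls were lost with 1 fed library left out for Oprm1 (adjusted p = 0.07 without replicate 2 and 0.0916 without replicate 3) and Chgb (adjusted p = 0.0538 without replicate 3) against Calcrl/Drd2 and for Penk against Nts/Tac2 (adjusted p = 0.062 without replicate 2 and 0.134 without replicate 3).

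Of 8 genes used before to study CeL PKCδ neurons, 4 could be tested, among them Penk, given above. Ezr was higher against both gates (1.92, SE 0.23, adjusted p = 4.2e-06 and 2.17, SE 0.24, adjusted p = 6.84e-05). Cyp26b1, an enzyme that degrades retinoic acid, was lower than in the Calcrl/Drd2 nuclei (-0.90) and higher than in the Nts/Tac2 nuclei (1.87). Gabra5, a GABA-A receptor subunit, did not pass against either (-0.44, SE 0.17, adjusted p = 0.105 and 0.08, SE 0.20, adjusted p = 0.858), at 93.4 ± 10.4 CPM (SD, n = 3). Cyp26b1 was not called against Calcrl/Drd2 (adjusted p = 0.0552 without replicate 1 and 0.311 without replicate 3) or against Nts/Tac2 (adjusted p = 0.188 without replicate 2, not tested without replicate 3) with 1 fed library left out. The receptors Oxtr, Crhr1, Glp1r and Npy1r stayed under the filter on low counts, at 8.01, 4.88 and 5.95 CPM for Oxtr, 0, 2.44 and 1.08 CPM for Crhr1, 3.2, 0 and 0.541 CPM for Glp1r and 1.6, 6.51 and 5.95 CPM for Npy1r. Ghsr, the ghrelin receptor, gave 0 UMIs in the Prkcd nuclei of all 5 libraries.

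Of 35 potassium channel genes tested, 15 were lower in the Prkcd than in the Calcrl/Drd2 nuclei and 1 was higher, with a median log2 fold change of -0.40 against 0.00 for all genes. Kcnh1, a voltage-gated channel of the EAG group, stood at 24, 39.1 and 31.4 CPM in the Prkcd nuclei against 185, 151 and 144 CPM (-2.30, SE 0.18, adjusted p = 1.25e-08). The leak channel Kcnk2 stood at 28.8, 9.76 and 17.9 CPM against 59.5, 54 and 79.7 CPM (-1.95, SE 0.25, adjusted p = 9.54e-06). Neither gene overlapped between the gates. Kcnj6 was lower too (-1.69, SE 0.27, adjusted p = 0.000121), while Kcnj3, which encodes the subunit that pairs with it in channels opened by G proteins, was the 1 gene that was higher (0.41, SE 0.11, adjusted p = 0.0173) and lost its call with 1 library left out (adjusted p = 0.223 without replicate 3). In the fit without fed replicate 3, 10 of 35 were lower and 0 higher.

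Against the Nts/Tac2 nuclei the split was even, with 8 of 34 higher and 10 lower and a median of 0.12, and 4 of 30 higher and 4 lower without fed replicate 3. Kcnb2, a delayed rectifier, was at 44.8, 128 and 107 CPM against 838, 988 and 995 CPM (-3.41, SE 0.19, adjusted p = 9.17e-07), and Kcnc2, a channel of fast-firing neurons, at 80.1, 90.3 and 101 CPM against 548, 990.3 and 495 CPM (-2.89, SE 0.21, adjusted p = 3.67e-06). Kcnip1, a subunit of A-type channels, was higher (123, 125 and 161 CPM against 49.2, 14.8 and 8.96 CPM, 2.67, SE 0.38, adjusted p = 0.000469), as was the A-type channel Kcnd3 (1.43). Kcnb2 and Kcnc2 were lower against both gates (-1.26 and -0.78 against Calcrl/Drd2). Kcnh1 (-0.82) and Kcnj3 (0.59) kept their direction from the first comparison, and their calls here were lost with 1 fed library left out (adjusted p = 0.0947 without replicate 1, 0.0593 without replicate 2 and 0.0952 without replicate 3 for Kcnh1 and adjusted p = 0.126 without replicate 3 for Kcnj3).

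**Figure D3:**
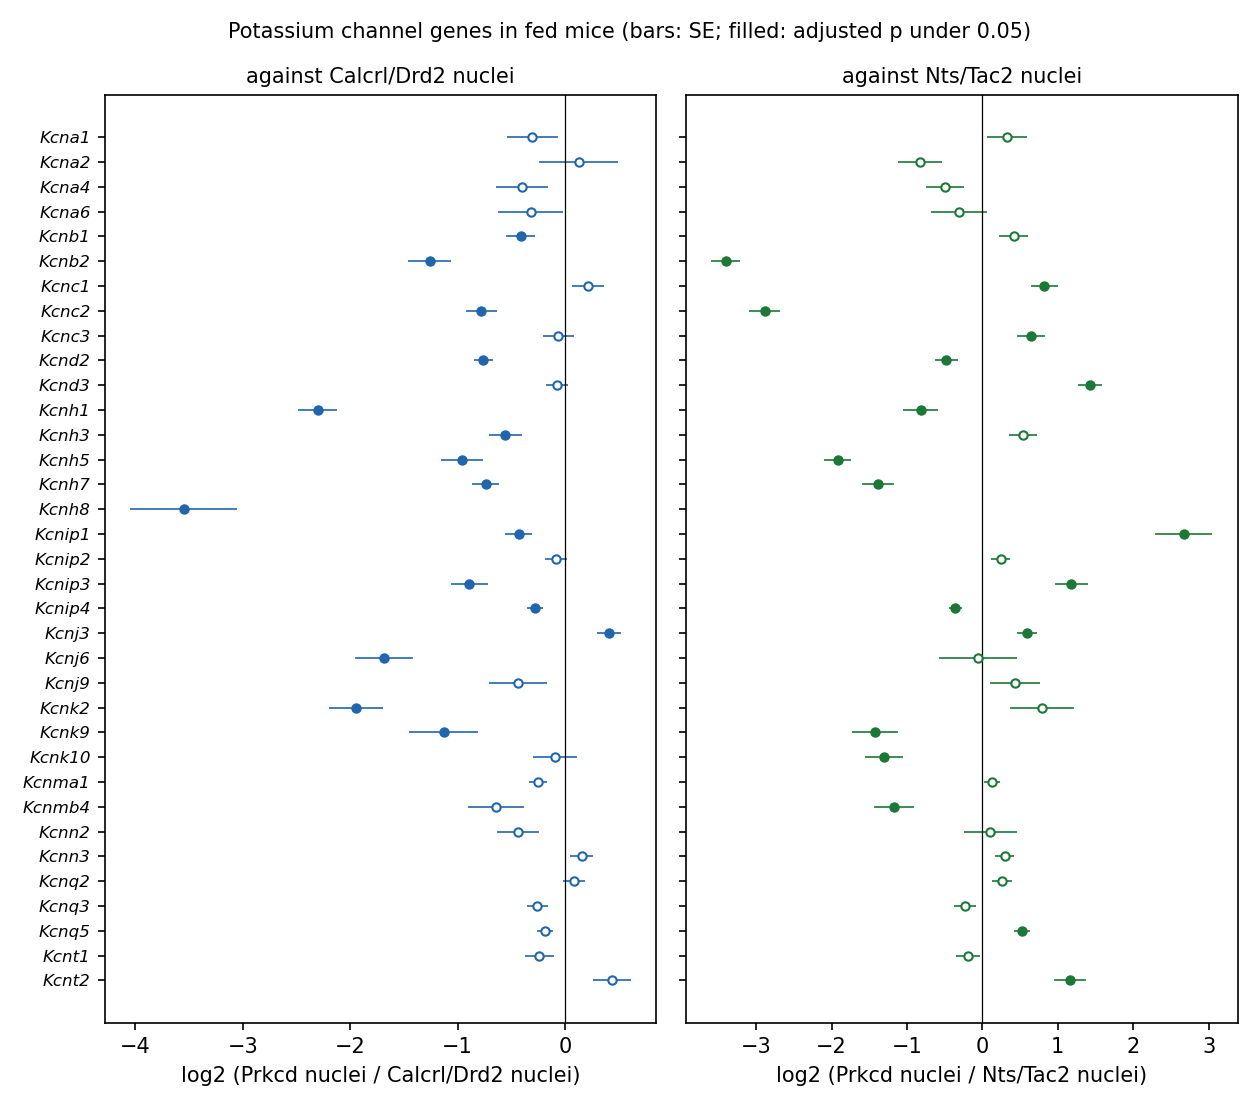
Log2 fold change of potassium channel genes in the fed Prkcd nuclei over the Calcrl/Drd2 nuclei (left) and the Nts/Tac2 nuclei (right), from fits over 3 libraries. Bars are standard errors and filled points passed an adjusted p of 0.05. On the left 15 filled points lie below 0 and 1 above, on the right 10 and 8.

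Glutamate receptors were more often lower than in the Calcrl/Drd2 nuclei and more often higher than in the Nts/Tac2 nuclei. Against the Calcrl/Drd2 nuclei 8 of 21 tested were lower and 1 was higher (median -0.21), against the Nts/Tac2 nuclei 9 were higher and 2 lower (median 0.21). These became 7 lower and 0 higher, and 4 higher and 1 lower, without fed replicate 3. Grin2a, an NMDA receptor subunit, stood at 280.3, 338 and 411 CPM in the Prkcd nuclei, 1049.7, 975 and 891 CPM in the Calcrl/Drd2 nuclei and 489.7, 409.6 and 315 CPM in the Nts/Tac2 nuclei, so it was lower than in the first (-1.52, SE 0.12, adjusted p = 1.25e-08) and did not pass against the second (-0.26, SE 0.19, adjusted p = 0.409). The kainate receptor subunit Grik4 was lower than in the Calcrl/Drd2 nuclei (-1.88) and higher than in the Nts/Tac2 nuclei (1.02). Its call against Nts/Tac2 was lost with 1 library left out (adjusted p = 0.133 without replicate 2 and 0.303 without replicate 3). Gria3, an AMPA receptor subunit, was lower against both (-1.16 and -1.05). Among GABA receptors, Gabbr2, a subunit of the GABA-B receptor, was higher against both gates, at 407, 549 and 491 CPM against 234, 195 and 293 CPM and 130.5, 33.8 and 49.8 CPM (0.96, SE 0.13, adjusted p = 1.44e-05 and 2.79, SE 0.31, adjusted p = 6.99e-05). The whole list had 1 of 17 higher and 4 lower against Calcrl/Drd2, and 2 higher and 5 lower against Nts/Tac2.

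Calcium and sodium channels followed a mixed pattern, with 3 of 23 higher and 7 lower against Calcrl/Drd2 and 3 of 22 higher and 3 lower against Nts/Tac2. Against Calcrl/Drd2 the counts fell to 1 higher and 5 lower without fed replicate 1, 3 and 4 without fed replicate 2, and 1 and 3 without fed replicate 3. Against Nts/Tac2 they were 3 higher and 5 lower without fed replicate 1, and 2 higher and 3 lower without fed replicate 2 or 3. The sodium channel Scn9a was lower against both (-1.09 and -2.94), and Cacna2d3, an auxiliary calcium channel subunit, was higher than in the Nts/Tac2 nuclei (2.18). Cacna1g, a T-type calcium channel, was at 9.61, 4.88 and 16.2 CPM, lower than the 51.4, 31.3 and 57.1 CPM of the Calcrl/Drd2 nuclei (-2.13, SE 0.27, adjusted p = 8.73e-06). Of 31 actin and spine regulators, 6 were higher and 4 lower against Calcrl/Drd2, and 2 were higher and 8 lower against Nts/Tac2. Without fed replicate 3, 3 were higher and 2 lower in the first comparison and 2 higher and 2 lower in the second, and without fed replicate 1 the first had 6 higher and 2 lower. Tiam1, an exchange factor for Rac, and Shank2, a scaffold of the postsynaptic density, were higher against both (Tiam1 0.67 and 1.04, Shank2 0.75 and 1.26).

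Transcription factors of the subpallium were more often lower than higher, with 9 of 22 lower and 3 higher against Calcrl/Drd2 and 10 of 20 lower and 3 higher against Nts/Tac2. The counts were 4 of 19 lower and 2 higher, and 7 of 16 lower and 3 higher, without fed replicate 3. Sox5 was higher against both (1.07, SE 0.10, adjusted p = 2.39e-07 and 4.41, SE 0.49, adjusted p = 7.41e-05), although in the Nts/Tac2 nuclei it stood at 327, 16.9 and 47.8 CPM in fed replicates 1, 2 and 3, with the first far above the others. Nr2f1, a nuclear receptor of the COUP-TF group, was also higher than in the Nts/Tac2 nuclei (3.18). Tshz2, a zinc finger factor of the teashirt family, lay between the gates at 729, 829.9 and 1002 CPM, above the 284, 198 and 295 CPM of the Calcrl/Drd2 nuclei and below the 1702, 1558 and 1977 CPM of the Nts/Tac2 nuclei (1.69, SE 0.12, adjusted p = 3.69e-09 and -1.09, SE 0.11, adjusted p = 3.03e-05). Ebf1 was low at 1.6, 9.76 and 30.3 CPM, against 418, 587 and 508 CPM in the Nts/Tac2 nuclei.

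Genes of the glucocorticoid list, which holds induced genes and also the receptor gene Nr3c2, were higher where they differed. So were genes of insulin and FoxO signalling, with 1 exception against the Nts/Tac2 nuclei. Sgk1, a kinase induced by glucocorticoids, stood at 479, 619 and 488 CPM in the Prkcd nuclei, 315, 378 and 368 CPM in the Calcrl/Drd2 nuclei and 242, 109.8 and 149 CPM in the Nts/Tac2 nuclei (0.53, SE 0.10, adjusted p = 0.000732 and 1.63, SE 0.21, adjusted p = 0.000206). Fkbp5, which holds back the glucocorticoid receptor, was higher against both as well (0.70 and 0.82). In all 4 of 9 tested genes of the glucocorticoid list were higher and 0 lower against Calcrl/Drd2, and 3 of 8 were higher and 0 lower against Nts/Tac2. The insulin and FoxO list had 5 of 23 higher and 0 lower, and 6 of 23 higher and 1 lower, among them Prkaa2, a catalytic subunit of the energy sensor AMPK (0.73 and 0.70). Without fed replicate 3 the insulin and FoxO calls fell to 2 higher against Calcrl/Drd2 and 3 against Nts/Tac2 (3 also without fed replicate 2, and 9 without fed replicate 1), and the glucocorticoid calls against Nts/Tac2 to 1 (2 without fed replicate 2). Of the genes named here, calls against Nts/Tac2 were lost with 1 fed library left out for Fkbp5 (adjusted p = 0.0663 without replicate 3) and Prkaa2 (adjusted p = 0.205 without replicate 2). Foxo1 passed against the Calcrl/Drd2 nuclei alone (0.92, SE 0.18, adjusted p = 0.000778, against 0.59, SE 0.21, adjusted p = 0.0765).

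Among the immediate-early genes, which neuronal activity induces, Egr1 was higher in both comparisons. Egr1 stood at 38.4, 111 and 90.9 CPM in the Prkcd nuclei, 36.5, 40.0 and 22.6 CPM in the Calcrl/Drd2 nuclei and 17, 4.22 and 2.99 CPM in the Nts/Tac2 nuclei (1.30, SE 0.25, adjusted p = 0.000893 and 3.43, SE 0.47, adjusted p = 0.000358). Egr1 in fed replicate 1 hardly exceeded the Calcrl/Drd2 nuclei, and without fed replicate 3 the difference lost its call (adjusted p = 0.134 without replicate 3). Fos was at 11.2, 41.5 and 24.4 CPM, higher than in the Calcrl/Drd2 nuclei (1.63, SE 0.37, adjusted p = 0.00402) and below the filter against the Nts/Tac2 nuclei. Its call was lost with 1 library left out (adjusted p = 0.126 without replicate 2, not tested without replicate 3). Of the list, 2 of 7 tested were higher against Calcrl/Drd2 and 1 of 5 against Nts/Tac2, with 8 of 13 and 8 of 12 without fed replicate 1 and 0 of 5 and 1 of 5 without fed replicate 3. Mitochondrial transcripts were higher for 8 of 12 against the Nts/Tac2 nuclei (median 0.81) and for 0 of 12 against the Calcrl/Drd2 nuclei, and those of ribosomal proteins for 3 of 55 and 0 of 62. The mitochondrial count fell to 5 of 12 without fed replicate 2 and 1 of 12 without fed replicate 3, and the ribosomal one to 2 of 60 and 1 of 49. The part of free RNA in these was not tested.

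For each direction between the gates, the 8 called genes with the largest log2 fold changes among those of at least 20 CPM in the higher gate are named. Only the higher gate had to reach that level, and where the other gate is near 0 the fold rests on a few UMIs, so no order is read from it. The genes named as higher than in the Calcrl/Drd2 nuclei were Cftr, Slc29a4, Boc, Coch, Col27a1, Fyb2, Edar and Tex15. Cftr, a chloride channel regulated by cyclic AMP, stood at 32, 19.5 and 28.7 CPM in the Prkcd nuclei against 5.41, 0 and 0.984 CPM, and Slc29a4, a transporter of monoamines, at 28.8, 26.9 and 16.2 CPM against 1.35, 0 and 2.95 CPM. Those lower were Cspg4, Igsf21, Ntn1, Stk32a, Kcnh8, Nxph1, Pde11a and Bcas1. Nxph1, a ligand of neurexins, was at 12.8, 8.14 and 18.4 CPM against 159.6, 62.7 and 178 CPM (-3.31, SE 0.21, adjusted p = 1.28e-09). Cspg4 gave 0 UMIs in the fed Prkcd nuclei and 25.7, 12.2 and 23.6 CPM in the Calcrl/Drd2 nuclei. Cspg4 and Bcas1 are known from oligodendrocyte precursors and their progeny, whose markers summed to 146, 64.4 and 116 CPM in the Calcrl/Drd2 nuclei against 6.41, 14.6 and 22.7 CPM in the Prkcd nuclei, and endothelial markers summed to 0, 33.1 and 29.5 CPM in the Calcrl/Drd2 nuclei. The part of such nuclei in these 2 genes was not tested.

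The genes named in the same way as higher than in the Nts/Tac2 nuclei were Kdr, Fyb2, Col27a1, Cald1, Tnfaip8l3, Sox5, Edar and Fam189a2. Cald1, which encodes the actin-binding protein caldesmon, was at 122, 54.5 and 94.2 CPM against 11.3, 0 and 0.995 CPM (adjusted p = 2.16e-05). Kdr and Col27a1 were at 1.89, 0 and 0 CPM and 3.78, 0 and 0.995 CPM in the Nts/Tac2 nuclei, which are too few UMIs to give their ratios a meaning. Lower were Igf1, Shroom3, Tox, Cd44, Ebf1, Fbln2, Htr2c and Pdyn. Tox, a nuclear HMG-box factor, was at 4.8, 30.9 and 25.4 CPM against 788, 1018 and 889 CPM (-5.41, SE 0.24, adjusted p = 2.47e-07), and Igf1, insulin-like growth factor 1, gave 1 UMI in the 242 fed Prkcd nuclei against 30.3, 31.7 and 29.9 CPM. Shroom3, a regulator of apical actin, was at 1.6, 2.44 and 3.25 CPM against 172, 141 and 80.6 CPM.

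The vector gave mCherry UMIs in fed replicate 3 and 0 UMIs in the Prkcd nuclei of the other 4 libraries. Of its 114 Prkcd nuclei 35 held an mCherry UMI (30.7%, exact 95% interval 22.4 to 40.0). The share was 32.8% (21.8 to 45.4) in the Calcrl/Drd2 nuclei, 28.6% (17.9 to 41.3) in the Nts/Tac2 nuclei and 32.3% (29.6 to 35.0) in all other Gad nuclei. In the nuclei without a Gad UMI it was 10.1% (5.32 to 17.0), at a median depth of 5593 UMIs against 15099 UMIs in the Prkcd nuclei. Thinned to 4000 UMIs the shares were 16.1% (9.81 to 24.2) in the Prkcd nuclei and 11.5% (5.65 to 20.1) without Gad, with 87 of the 119 nuclei without Gad deep enough to enter, so the intervals overlapped and mCherry in the Prkcd nuclei could not be told from the level without Gad at equal depth. With 1 library no test was made. These intervals cover counting error only.

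The fed and fasted libraries were compared next, which asks whether these neurons change when mice go without food. Prkcd nuclei made up 7.05% (95% exact interval 5.50 to 8.88), 7.19% (5.56 to 9.13) and 8.64% (7.18 to 10.3) of the Gad nuclei in the fed libraries, and 6.60% (5.34 to 8.05) and 6.69% (5.49 to 8.05) in the fasted ones. Both fasted values lay below the 3 fed values. The means were 7.63 ± 0.881% (SD, n = 3) and 6.65 ± 0.0603% (n = 2), a difference of -0.983 percentage points, with p = 0.3 by an exact two-sided permutation test, whose smallest possible p here was 0.1. Without fed replicate 3, the library of the Htr2a-Cre mice, the difference was -0.476 points. With Prkcd at 6 p10k or more the shares were 4.31% and 3.00% (exact permutation p = 0.1). The gate rests on Prkcd counts, so a share of nuclei and a level of Prkcd per nucleus cannot be told apart in it.

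In the Prkcd nuclei, 27 of 9264 genes passed between the feeding states (0.291%), 22 higher (0.237%) and 5 lower (0.054%) after fasting. All 27 were without overlap between the fed and the fasted libraries. Of all tested genes, 13.8% were so in the higher direction and 9.82% in the lower. It follows that all 27 kept their direction within the pair of replicates 1 and the pair of replicates 2, taken as preparation batches. This agreement is therefore no separate check. The calls are those of edgeR's quasi-likelihood test with Benjamini-Hochberg adjustment, and 729 genes had an unadjusted p under 0.05 (4.66% higher and 3.21% lower). With the replicate number as a replicate block, 0 genes passed, the lowest adjusted p was 0.0859, and all 27 had an unadjusted p under 0.05. That fit leaves 1 residual degree of freedom among the libraries. With 1 library left out, 0 genes passed without fed replicate 2 (800 at an unadjusted p under 0.05) and 0 without fed replicate 3 (433), 53 without fed replicate 1, 51 without fasted replicate 1 and 15 without fasted replicate 2.

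The 5 genes that fell were Thsd4, Tshz2, Trpm3, Olfm2 and Zbbx. Thsd4, which encodes a protein of extracellular microfibrils (ENSMUSG00000032289, chr9:59874214-60429329 on the minus strand), stood at 68.9, 68.3 and 88.2 CPM in the fed libraries and 14.7 and 29.1 CPM in the fasted ones, a log2 change of -1.70 (SE 0.28, adjusted p = 0.0189). Tshz2 fell from 729, 829.9 and 1002 CPM to 523 and 360.1 CPM (-0.98, SE 0.19, adjusted p = 0.0433). Trpm3, a cation channel gated by heat and steroids, fell from 907, 828 and 938 CPM to 407 and 597 CPM (-0.84, SE 0.16, adjusted p = 0.0433). Olfm2, a secreted olfactomedin, and Zbbx changed by -1.60 and -2.17 (adjusted p = 0.0418 and 0.0464), Zbbx on 12 UMIs in the 2 fasted libraries. With the replicate block the adjusted p of these 5 lay between 0.19 and 0.305. In the other Gad nuclei 2 of the 5 (Tshz2 and Trpm3) were lower without overlap of the libraries (5.89% of the tested genes were), at 0.871 and 0.849 times the fed mean against 0.517 and 0.564 times in the Prkcd nuclei, and Thsd4 went from 87.9, 104 and 104.9 CPM to 65.1 and 89.9 CPM.

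Of the 22 higher genes, 11 belong to none of the lists of mitochondrial, ribosomal, respiratory chain, astrocyte, oligodendrocyte or free RNA genes. Slit1, a secreted ligand of Robo receptors in axon guidance (ENSMUSG00000025020, chr19:41588676-41732268 on the minus strand), stood at 33.6, 26 and 24.9 CPM in the fed libraries and 95.3 and 81.8 CPM in the fasted ones, a log2 change of 1.66 (SE 0.23, adjusted p = 0.00727). Pdzd2, a protein with many PDZ domains, rose from 476, 384 and 371 CPM to 843 and 828 CPM (1.02, SE 0.15, adjusted p = 0.0102). The proteoglycan gene Spock1 rose from 274, 238 and 224 CPM to 507 and 468 CPM (0.98, SE 0.16, adjusted p = 0.0189). The cadherin gene Cdh22, from 109, 127 and 98.5 CPM to 255 and 194 CPM, had the smallest change of the 22 (0.98, SE 0.20, adjusted p = 0.0481). Lypd1, which encodes a modulator of nicotinic receptors, changed by 1.19, Egfem1 by 1.16, Dcbld2 by 1.32, Rab31, a small GTPase of vesicle traffic, by 1.54, the tetraspanin Tspan18 by 1.87 and Sparcl1, a secreted matricellular protein abundant in astrocytes, by 2.04. The last of the 11, Ptgds, is described with the glial genes. In the replicate block the adjusted p was 0.136 for Slit1, 0.136 for Pdzd2 and 0.0859 for Egfem1.

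**Figure D4:**
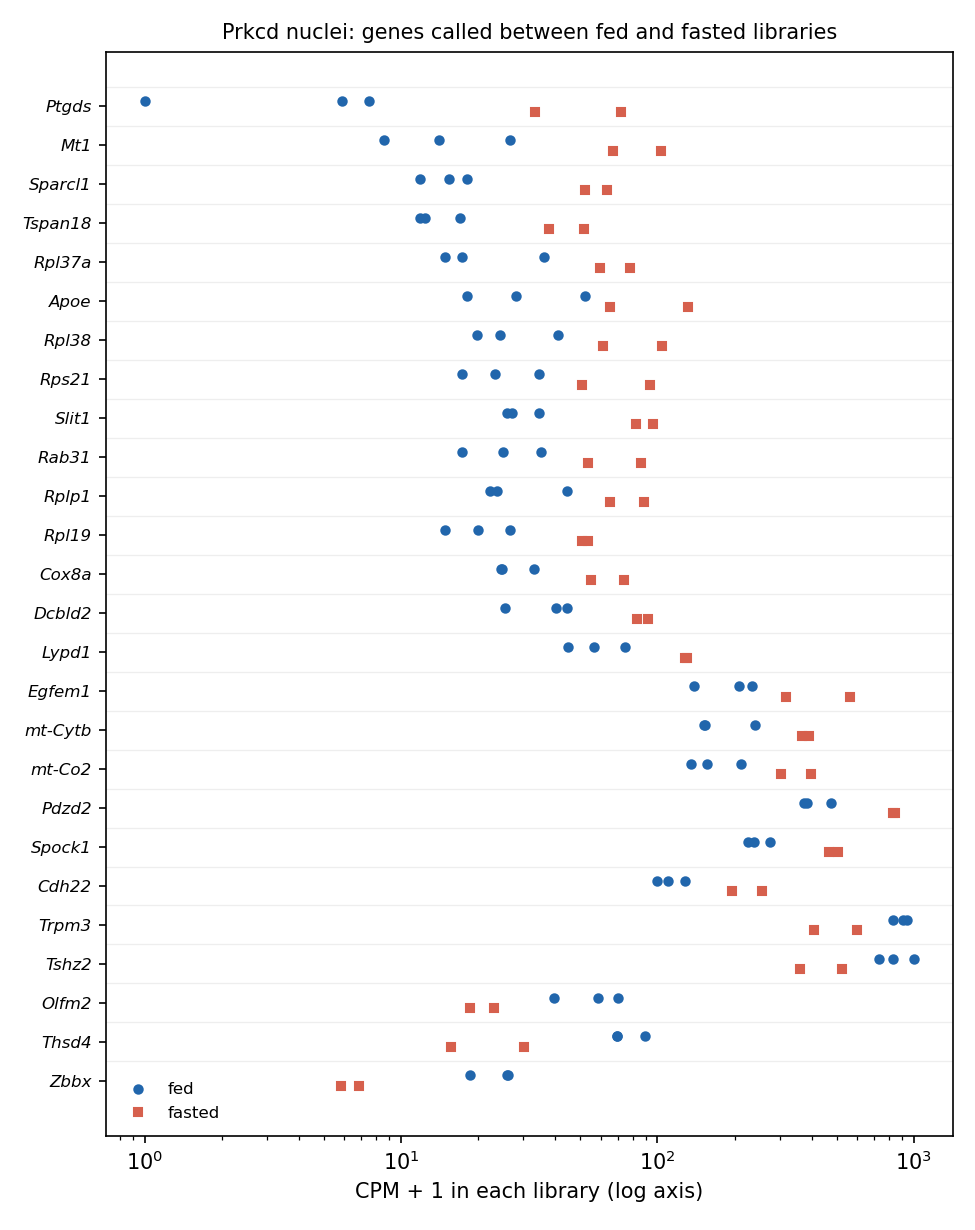
Levels of the genes named here that passed between fed and fasted libraries in the Prkcd nuclei. The x axis is CPM plus 1 on a log scale, blue circles are the 3 fed and red squares the 2 fasted libraries. No gene has an overlap of the 2 colours. Slit1 goes from 33.6, 26 and 24.9 CPM to 95.3 and 81.8 CPM and Thsd4 from 68.9, 68.3 and 88.2 CPM to 14.7 and 29.1 CPM.

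The largest rises were in transcripts known from glia. Mt1, a metallothionein induced by glucocorticoids and metals (ENSMUSG00000031765, chr8:94905710-94906955 on the plus strand), stood at 25.6, 13 and 7.58 CPM in the fed libraries and 65.9 and 102 CPM in the fasted ones (2.69, SE 0.35, adjusted p = 0.00675). Ptgds, prostaglandin D2 synthase of oligodendrocytes and the meninges, gave 0, 6 and 12 UMIs in the fed libraries and 22 and 117 in the fasted ones (3.48, SE 0.46, adjusted p = 0.00675). Apoe, known from astrocytes, changed by 1.78. Of the ribosomal protein genes 5 rose (Rpl19, Rplp1, Rps21, Rpl38 and Rpl37a, 1.44 to 1.80). The respiratory chain genes mt-Co2 (1.07), mt-Cytb (1.08) and Cox8a (1.33) rose too.

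Most members of these lists lay above 0. Of 76 ribosomal protein genes tested, 75 lay above 0, 5 were called and 59 were higher at an unadjusted p under 0.05 (4.66% of all genes were), with a median log2 change of 1.02 against 0.00 for all genes. Of 12 mitochondrial transcripts, 2 were called (median 1.02), and of 68 nuclear genes of the respiratory chain 1 was (median 0.51). Of 6 astrocyte genes tested 2 were called (median 1.36), of 4 oligodendrocyte genes 0 (median 0.81, 2 at an unadjusted p under 0.05), and of 10 secreted or abundant glial genes 2 (median 1.61). Leaving out fasted replicate 2 lowered the median of the astrocyte genes to 0.76 and that of the respiratory chain to 0.23, and leaving out fasted replicate 1 raised that of the oligodendrocyte genes to 1.21. In summed level, ribosomal protein genes stood at 2486, 1428 and 1584 CPM in the fed Prkcd nuclei and 2988 and 3747 CPM in the fasted ones. The same sum was 1831, 1115 and 1339 and 2807 and 2645 CPM in the other Gad nuclei, and 3003, 2393 and 1839 and 4756 and 7117 CPM in the nuclei without Gad. Barcodes outside the bounds held 109892, 45126 and 29694 CPM in the fed libraries and 93632 and 74937 CPM in the fasted ones, with fed replicate 1 the highest of the 5. Astrocyte genes, most of it Slc1a2, summed to 176, 206 and 181 CPM and 314 and 607 CPM in the Prkcd nuclei. Oligodendrocyte genes, most of it Mbp, summed to 243, 216 and 237 CPM and 283 and 376 CPM.

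The libraries differed in the same direction in their barcodes. Barcodes at 0.8% of mitochondrial UMIs or above numbered 3505, 1191 and 253 in fed replicates 1, 2 and 3 and 6141 and 5547 in the fasted ones, and the median mitochondrial share of the Prkcd nuclei was 0.127%, 0.0435% and 0.0411% in the fed and 0.299% and 0.210% in the fasted libraries. The part of free RNA from the cytoplasm and from glia in the 22 rises was not tested. In the other Gad nuclei 20 of the 22 higher genes were also higher without overlap of the libraries, as were 10.6% of all tested genes. Of the 22, 21 had the same sign in the Calcrl/Drd2 nuclei, all 21 that could be tested in the Nts/Tac2 nuclei, and 19 in the nuclei without Gad, but these comparisons come from the same 5 libraries, and the Calcrl/Drd2 and Nts/Tac2 nuclei are also among the other Gad nuclei, so they are not separate support.

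**Figure D5:**
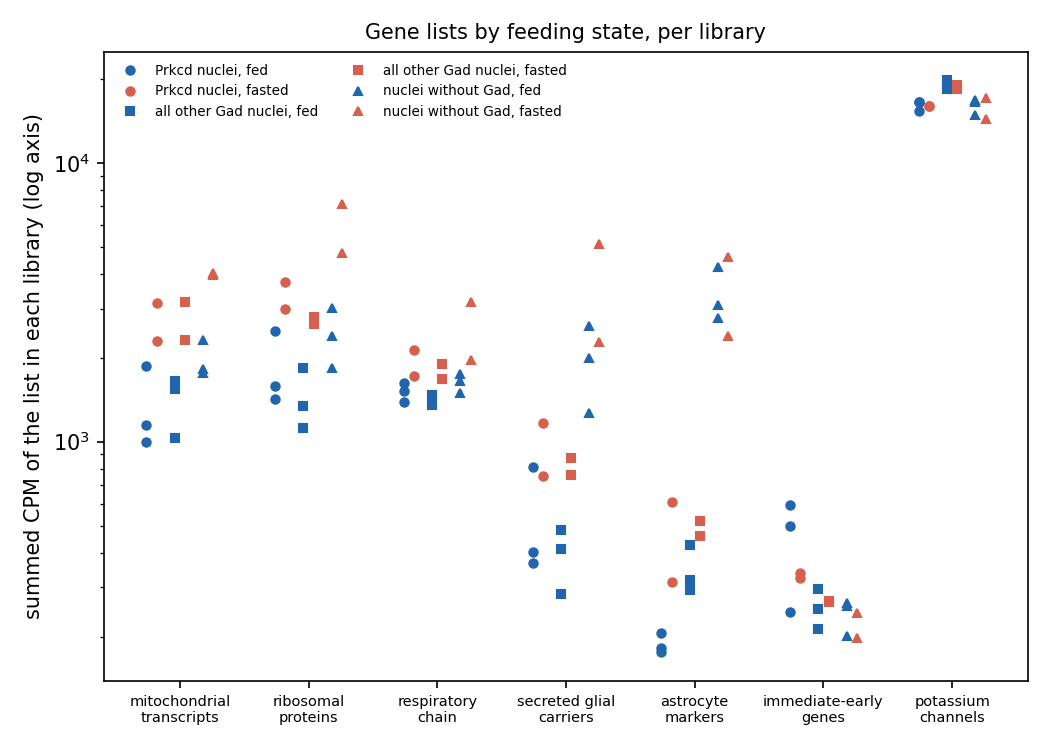
Summed level of gene lists in each library, in CPM on a log scale. Colours mark fed (blue) and fasted (red) libraries, and shapes mark the Prkcd nuclei, the other Gad nuclei and the nuclei without Gad. For mitochondrial transcripts and ribosomal proteins the fasted points lie above the fed ones in all 3 gates (1868, 998 and 1147 against 3140.5 and 2295 CPM for mitochondrial transcripts in the Prkcd nuclei).

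Among genes that glucocorticoids or neuronal activity are known to induce, Mt1 was the 1 that passed. Fkbp5 stood at 227, 307 and 147 CPM in the fed and 431 and 449 CPM in the fasted libraries without overlap, and did not pass (0.95, SE 0.23, adjusted p = 0.127). Nr3c2, the mineralocorticoid receptor, is counted in the glucocorticoid list as a receptor for these steroids and not as an induced gene. It stood at 868, 866 and 854 and 449.9 and 634 CPM (-0.68, SE 0.15, adjusted p = 0.0841). Of 12 genes of the glucocorticoid list tested, Nr3c2 among them, 1 passed (Mt1). At an unadjusted p under 0.05, 5 were higher and 1 lower (4.66% and 3.21% of all genes were). The median of the list, 0.19, had no stable sign, at 0.03 without fed replicate 1, 0.09 without fed replicate 3, 0.44 without fed replicate 2, 0.29 without fasted replicate 1 and -0.05 without fasted replicate 2. Mt2, another metallothionein, did not pass (3.02, SE 0.71, adjusted p = 0.102). Fos was at 11.2, 41.5 and 24.4 CPM in the fed and 8.79 and 14.5 CPM in the fasted libraries (-1.14, SE 0.45, adjusted p = 0.494), and 0 of 12 immediate-early genes passed, 11 of them below 0, with a median of -0.42 and 3 lower and 0 higher at an unadjusted p under 0.05. This median was -0.21 without fed replicate 2, -0.78 without fed replicate 1, -0.86 without fasted replicate 1 and -0.65 without fasted replicate 2. Their summed level was 245, 594 and 498 CPM in the fed libraries and 325 and 337 CPM in the fasted ones, and fed replicate 1 lay below both fasted values.

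The signalling genes of the Prkcd nuclei did not pass either. Tacr1 was at 309, 267 and 207 CPM in the fed and 407 and 383 CPM in the fasted libraries, without overlap (0.59, SE 0.18, adjusted p = 0.266). Oprk1, the kappa opioid receptor, was at 6.41, 8.14 and 6.49 and 16.1 and 24.2 CPM (1.54, SE 0.41, adjusted p = 0.165), Oprm1 changed by -0.26 (SE 0.19, adjusted p = 0.844) and Penk by -0.02 (SE 0.24, adjusted p = 0.998). In these lists 0 of 12 Gq-coupled receptors, 0 of 7 PKC isoforms, 0 of 23 genes of diacylglycerol and phospholipase C signalling, 0 of 24 insulin and FoxO genes (among them Igf1r, 0.01, and Foxo1, 0.01) and 0 of 6 feeding hormone receptors passed. With the same test 1, 0, 1, 0 and 0 of these were higher and 1, 0, 5, 0 and 0 lower at an unadjusted p under 0.05. Potassium channels (0 of 34), glutamate receptors (0 of 21), GABA receptors (0 of 17), clock genes (0 of 18) and actin regulators (0 of 31) also gave none. In these 3, 0, 0, 0 and 7 were higher and 3, 3, 1, 1 and 1 lower at an unadjusted p under 0.05. A change that misses the threshold is not shown to be absent. Prkce, among the most deeply read of these genes, changed by -0.11 (SE 0.12, adjusted p = 0.918).

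The same contrast gave 0 of 8199 genes in the Calcrl/Drd2 nuclei (385 at an unadjusted p under 0.05) and 40 of 7779 (0.514%) in the Nts/Tac2 nuclei, 10 of which were among the 27. Whether the Prkcd nuclei differed from these gates in their response was tested by the interaction of gate and feeding with library as a block. Against Calcrl/Drd2 1 of 9107 genes passed (0.011%), Pcdh15, a protocadherin, with 402 genes at an unadjusted p under 0.05 (4.41%). Pcdh15 stood at 389, 370.2 and 405 CPM in the fed and 207 and 307 CPM in the fasted Prkcd nuclei, and at 396, 329 and 362 and 401 and 566 CPM in the Calcrl/Drd2 nuclei, a difference of the log2 changes of -1.03 (SE 0.157, adjusted p = 0.0306). The call was not made after removal of the doublets or without fed replicate 2, fed replicate 3, fasted replicate 1 or fasted replicate 2. Against Nts/Tac2 0 of 8959 passed, with 548 (6.12%) at an unadjusted p under 0.05 (DESeq2 gave 0, with 94) and a lowest adjusted p of 0.0502. Other settings gave calls here, 23 by the likelihood ratio test, 45 without a filter on low counts, 5 with RLE size factors, 5 without doublets, and 31, 11, 5, 0 and 1 without fed replicates 1, 2 and 3 and fasted replicates 1 and 2. DESeq2 also gave 0 against Calcrl/Drd2, with 49 at an unadjusted p under 0.05. The 2 interactions share the Prkcd libraries. For Slit1 the log2 change was 1.66 in the Prkcd nuclei and 0.20 (SE 0.32) in the Calcrl/Drd2 nuclei (interaction, adjusted p = 0.49), and 1.93 (SE 0.53) in the Nts/Tac2 nuclei. For Thsd4 it was -1.70, -0.37 (SE 0.28) and -0.36 (SE 0.31) (interaction, adjusted p = 0.576 against Calcrl/Drd2). None of the 27 passed an interaction after adjustment, so a response particular to the Prkcd nuclei was not shown for them.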

How the data were processed

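The deposited files hold UMI counts per gene and barcode for 22532 genes, which the authors made with Cell Ranger 5.0.0, as the matrix header says, from reads over exons and introns on GRCm39 with Cre and mCherry added. The submitters' processing notes name Cell Ranger 2.1.1 and mm10 instead, and the methods give 20 h of fasting where the label of fasted replicate 2 gives 21 h. Ensembl IDs were matched to GENCODE M39 for coordinates (22383 of 22532). Barcodes per library numbered 4657, 2347 and 1694 in the fed and 7850 and 7291 in the fasted libraries, so not every barcode is a cell, and 58 of 23781 distinct barcodes occurred in more than 1 library.

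Counts were summed over the nuclei of a gate in each library and tested with the quasi-likelihood test of edgeR 4.0.16 (TMM, filterByExpr, Benjamini-Hochberg adjusted p under 0.05, R 4.3.3), with the 12 gate genes left out of the tested genes and kept in the totals. Each library pools 2 mice. Between feeding states the p-values measure the spread between libraries. In the gate and interaction tests they measure how the difference between gates within a library varies over the libraries. The study's methods used edgeR's likelihood ratio test on such sums, which was an alternative here. Gates and interactions had library as a block. Doublets (Scrublet in scanpy 1.11.5) were kept. Shares were tested with exact permutation tests, and their intervals are exact Clopper-Pearson ones that cover counting error only. The tests were checked on simulated counts, where the interaction tests made a few calls with no gene changed, and the share of false calls in the gate and interaction tests lay somewhat above the threshold. Replicate libraries of a group differed by more than sampling noise (chi-square per gene 2.35 to 3.84).

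The study's notes put the first fed and fasted datasets in one preparation, the second ones in another and a further fed dataset in its own. The deposited replicate numbers were taken to follow that numbering, which the labels do not state, so the pairing is assumed. The deviations from the group means correlated at 0.0705 for replicates 1, 0.264 for replicates 2 and 0.206 for fed replicate 3 with fasted replicate 1 (6392 genes). The fasted libraries deviate from their mean by equal and opposite amounts. Each fed library therefore had the same value with the opposite sign against the other fasted library. A positive value for each fed library was thus fixed in advance and does not show the pairing.

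The members, gates and 30 gene lists were chosen with earlier results of these data known. Genes were named by rule: between feeding states the 12 called genes with the largest change in each direction and called list members, in the fed profile the 20 largest ratios at 20 CPM or more in the Prkcd nuclei of every fed library, and between gates the 8 called genes with the largest change in each direction at 20 CPM or more in the higher gate, with list members. List members that did not pass, and the 10 lowest ratios of the profile, were picked for their role or place after their values were seen. Some members of the lists, 1 of the 27 genes called between feeding states among them, are counted but not reported here by name.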

Additional observations from a re-analysis of the deposited data

Results flagged for a closer look

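Pcdh15, a protocadherin, was the 1 gene of 9107 whose change with fasting differed between the Prkcd and the Calcrl/Drd2 nuclei by edgeR's interaction test, with a difference of the log2 changes of -1.03 (SE 0.157, adjusted p = 0.0306). It was lower in both fasted libraries than in the 3 fed ones in the Prkcd nuclei and higher in both in the Calcrl/Drd2 nuclei. Within the Prkcd nuclei alone the change of Pcdh15 was -0.60 on the log2 scale and did not pass (adjusted p = 0.231). The interaction call was not made by DESeq2, after removal of the doublets, or without fed replicate 2, fed replicate 3, fasted replicate 1 or fasted replicate 2. On simulated counts with no gene changed the same test also made a call, so this call alone does not show a difference.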

How the results depend on the processing

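The counts of calls between feeding states and in both interactions moved with the setting. Against 27 calls between feeding states, no filter on low counts gave 140 and the likelihood ratio test 110, with all 27 among both, and the replicate block gave 0. DESeq2 gave 28 (23 shared), and a Prkcd minimum of 6 p10k, equal nuclei and UMIs, at least 2000 genes and a gate set after thinning gave 23, 24, 21 and 38 (13, 18, 20 and 17 shared). With 1 library left out the count ran from 0 to 53. All 27 kept their direction wherever they could be tested. For settings that reused the same sums, the lack of overlap between libraries largely fixed this beforehand. The interaction with the Calcrl/Drd2 nuclei gave 1 call, 19 without a filter, 3 by the likelihood ratio test, 0 by DESeq2, 0 without doublets and 0 to 2 with 1 library left out. That with the Nts/Tac2 nuclei gave 0 calls, 5 with RLE size factors, 45 without a filter, 23 by the likelihood ratio test, 5 without doublets and 0 to 31 with 1 library left out. In fed mice DESeq2 gave 435 calls against Calcrl/Drd2 and 781 against Nts/Tac2, all of them among the 1057 and 1423, and leaving out 1 library gave 576 to 982 and 775 to 1709. The cause of these differences was not tested. The difference in the share of Prkcd nuclei stayed negative in all 9 alternatives (-0.476 without fed replicate 3 to -1.80 percentage points with the gate set after thinning), with exact permutation p between 0.1 and 0.5. The 66 and 62 nuclei of fed replicates 1 and 2, and the 624357 UMIs of fed replicate 1, limit what could be seen of sparse genes. The level at which this limit lies was not measured.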

Other observations

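Of the feeding hormone receptors, 6 of 20 had enough counts to be tested in fed mice against the Calcrl/Drd2 nuclei. Ramp1, the partner of Calcrl in the CGRP receptor, stood at 73.7, 75.7 and 83.3 CPM in the Prkcd nuclei and 93.3, 111 and 110.3 CPM in the Calcrl/Drd2 nuclei (-0.47, SE 0.15, adjusted p = 0.0447 on the log2 scale), a call that was lost with any 1 fed library left out (adjusted p = 0.0672 without replicate 1, 0.184 without replicate 2 and 0.223 without replicate 3). It did not pass against the Nts/Tac2 nuclei (0.28, SE 0.21, adjusted p = 0.446). Igf1r, the receptor for insulin-like growth factor 1, stood at 232, 227 and 196 CPM against 104, 103 and 106 CPM in the Nts/Tac2 nuclei (0.99, SE 0.15, adjusted p = 0.000571) and did not pass against the Calcrl/Drd2 nuclei (-0.07, SE 0.12, adjusted p = 0.837). Insr, the insulin receptor, passed in neither (-0.29, SE 0.13, adjusted p = 0.16 and -0.29, SE 0.16, adjusted p = 0.263).

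Clock and clock-output genes were lower where they passed, apart from Rorb, an orphan nuclear receptor, at 56.1, 84.6 and 119.6 CPM against 16.2, 27.8 and 22.6 CPM in the Calcrl/Drd2 nuclei (1.98, SE 0.22, adjusted p = 1.42e-06) and 11.3, 2.11 and 39.8 CPM in the Nts/Tac2 nuclei (2.08, SE 0.34, adjusted p = 0.0012). In all 1 of 17 was higher and 3 lower against the first, and 1 of 15 was higher and 3 lower against the second. The lower calls fell to 2 without fed replicate 1 or 2 and 1 without fed replicate 3 in the first, and to 0 without fed replicate 2 and 1 without fed replicate 3 in the second. Hlf, a PAR-type transcription factor, stood at 25.6, 17.9 and 47.6 CPM, against 55.5, 47 and 57.1 CPM and 62.4, 78.1 and 68.7 CPM (-0.77, SE 0.23, adjusted p = 0.0296 and -1.18, SE 0.28, adjusted p = 0.0125), and its calls were lost with 1 fed library left out (adjusted p = 0.0962 without replicate 1 and 0.19 without replicate 2 for Calcrl/Drd2 and adjusted p = 0.0721 without replicate 2 for Nts/Tac2). None of the 18 clock genes tested passed between feeding states by edgeR's quasi-likelihood test, with 1 at an unadjusted p under 0.05.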
